A study of Mus musculus with 6 samples.

Results

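The NKR-P1 receptors and their Clec2 partners were followed in mouse splenic natural killer (NK) cells that carry either of the MHC class I receptors Ly49G and Ly49I. Members were the genes of the table that map to Klrb1a, Klrb1b, Klrb1c, Klrb1f, Clec2d, Clec2g and Clec2i. Of these 7 genes, 6 were among the 8520 genes listed, each with values in all 6 libraries, and Clec2g had no row in the table and is not analysed here. The 2 groups, Ly49G+ and Ly49I+, had 3 libraries each, and both came from untreated C57BL/6Ncr mice aged 6 to 8 weeks. NK cells were enriched from 20 spleens and stained after a block of Fc receptors, and cells with NK1.1 and without CD3 entered the sort. Sequencing used total RNA and stranded libraries. The Ly49G+ cells bound antibody 4D11 and not 5E6, which recognises Ly49C and Ly49I, and the Ly49I+ cells bound 5E6 and not 4D11, so the Ly49I+ gate may also hold cells with Ly49C. The labels call the libraries biological replicates but do not say how mice were divided among them, and the p-values therefore reflect how far these libraries vary, which may be technical.

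The NKR-P1 receptors are lectin-like proteins of the NK cell surface, encoded by the Klrb1 genes of the NK gene complex. Their ligands are Clr proteins, encoded by Clec2 genes that lie interspersed among the receptor genes, so that receptor and ligand are inherited together. NKR-P1B, from Klrb1b, is an inhibitory receptor that recruits the phosphatase SHP-1 when it meets Clr-b, from Clec2d, a protein most blood cells display. NKR-P1C, from Klrb1c, is the NK1.1 antigen, an activating receptor that signals through the FcR gamma chain, and NKR-P1F, from Klrb1f, binds Clr-g, from Clec2i.

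In RefSeq's GRCm38.p6, the assembly that mm10 represents, all members lie on chromosome 6 between bases 128609227 and 129186535, a span of 577 kb with 27 annotated genes. From the lower end, Klrb1a (gene 17057) occupies 128609227 to 128622934, Klrb1c (gene 17059) 128778485 to 128788641 and Klrb1b (gene 80782) 128813706 to 128826315, each on the minus strand. On the plus strand follow Clec2i (gene 93675) at 128887587 to 128898168, Klrb1f (gene 232408) at 129045837 to 129059724 and Clec2d (gene 93694) at 129180615 to 129186535. The receptor genes are relatives at different distances. In GENCODE M21 the longest coding sequences of Klrb1a and Klrb1c were 92.6% identical over aligned bases, Klrb1b and Klrb1c 87.0%, and Klrb1b and Klrb1f 71.6%. Clec2d and Clec2i were 88.3% identical.

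The promoters of Klrb1a and Klrb1c are lookalikes, and those of Klrb1b and Klrb1f share a shorter run of bases. They are shown because Klrb1a and Klrb1c did not differ detectably between the populations while Klrb1b and Klrb1f lay on opposite sides. Each sequence runs from 250 bases before to 50 bases after a start site in RefSeq's GRCm38.p6, read 5′ to 3′ along the gene. For Klrb1b, Klrb1c and Klrb1a that site is the 5′ end of the gene, and for Klrb1f it is base 129045901, which lies 64 bases inside the gene. In the first 2 sequences capitals mark the longest run shared by Klrb1b and Klrb1f, and in the others the longest run shared by Klrb1c and Klrb1a.
Klrb1b promoter, chr6:128826266-128826565, minus strand: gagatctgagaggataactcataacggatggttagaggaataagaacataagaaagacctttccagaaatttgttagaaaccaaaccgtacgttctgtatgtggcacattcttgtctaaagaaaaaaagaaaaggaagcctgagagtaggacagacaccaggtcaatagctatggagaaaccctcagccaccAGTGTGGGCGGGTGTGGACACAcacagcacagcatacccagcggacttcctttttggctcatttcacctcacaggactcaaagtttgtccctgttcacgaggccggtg
Klrb1f promoter, chr6:129045651-129045950, plus strand: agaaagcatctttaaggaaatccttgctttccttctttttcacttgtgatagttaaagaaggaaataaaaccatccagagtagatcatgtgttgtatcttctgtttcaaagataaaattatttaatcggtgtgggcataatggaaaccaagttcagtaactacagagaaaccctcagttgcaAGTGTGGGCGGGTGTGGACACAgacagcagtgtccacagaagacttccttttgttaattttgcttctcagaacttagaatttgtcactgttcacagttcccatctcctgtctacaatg
Klrb1c promoter, chr6:128788592-128788891, minus strand: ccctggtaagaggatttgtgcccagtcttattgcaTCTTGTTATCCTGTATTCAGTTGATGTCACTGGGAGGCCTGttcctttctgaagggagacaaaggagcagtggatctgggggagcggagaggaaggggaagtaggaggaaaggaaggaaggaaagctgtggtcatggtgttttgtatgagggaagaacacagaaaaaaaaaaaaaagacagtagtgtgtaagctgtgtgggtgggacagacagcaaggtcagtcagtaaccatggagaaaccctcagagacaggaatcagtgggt
Klrb1a promoter, chr6:128622885-128623184, minus strand: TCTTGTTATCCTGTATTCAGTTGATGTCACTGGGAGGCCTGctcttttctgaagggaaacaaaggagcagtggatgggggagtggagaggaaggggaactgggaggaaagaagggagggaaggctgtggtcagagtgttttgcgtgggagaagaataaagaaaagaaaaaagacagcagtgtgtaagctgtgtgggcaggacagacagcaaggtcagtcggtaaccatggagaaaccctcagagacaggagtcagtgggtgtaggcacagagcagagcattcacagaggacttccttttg
Klrb1a and Klrb1c shared an unbroken run of 41 bases, which reaches the edge of the Klrb1a window, and were 90.8% identical over 260 aligned bases. Klrb1b and Klrb1f shared a run of 22 bases and were 71.9% identical over 260 aligned bases. By identity they were no closer than Klrb1a and Klrb1f, at 71.9% over 221 aligned bases with a longest run of 13 bases. The run of 22 bases holds GGGTGTGG, the CACCC element bound by KLF factors. Like the other motifs here, it was searched on both strands and chosen after the sequences were seen. Its presence in the promoters of Klrb1b and Klrb1f follows from its choice out of their shared run. GGGTGTGG was in none of the other 5 members' promoters, and in 3.56% of 32851 RefSeq promoters. TGTGGT, the core letters of the Runx site, had 1 match in each of Klrb1a and Klrb1c and no match in Klrb1b and Klrb1f, against 16.8% of all promoters, and it overlaps the letters TGTGG of the first motif. AGGAAG, the core letters of the Ets site, was present in all 4 receptor promoters and in 35.4% of all promoters. These are matches of letters in a window and say nothing about binding. In Klrb1b the first motif lies shortly after a run of 16 bases that Klrb1c shares. The Klrb1c window ends too soon after this run to hold the motif at the same distance. The motif's absence from that window therefore does not show that Klrb1c lacks it.

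Library totals ran from 33599679 to 40892154 reads. All 12 NK cell markers of the list were measured, each at 352 CPM (counts per 1000000 reads of the library) or more in every library, so the labelled cell type's defining genes were present. Of these Eomes was higher and Gzmb, Prf1 and Tbx21 were lower in Ly49G+, with sums of 15562 to 15757 CPM in Ly49G+ and 16284 to 16965 CPM in Ly49I+. The number called was 1, 0 and 1 without Ly49G+ replicates 1, 2 and 3 and 2 without Ly49I+ replicate 2. It was also 2 without the intensity trend, with Prf1 and Tbx21 not called. The measured T cell markers other than Bcl11b lay higher in Ly49G+ although the cells were sorted as CD3-negative. Of 15 listed, 9 were measured and 6 were called, led by Cd3g, Cd3e and Cd28. Bcl11b lay at -0.02 ± 0.18 (SE, limma, adjusted p = 0.954). The summed level of the 9 was 588 to 662 CPM in Ly49G+ and 417 to 454 CPM in Ly49I+. Most of this sum came from Trdc, Trbc1 and Cd28. Over the libraries of both groups Trdc stood at 156 to 234 CPM and Trbc1 at 109 to 134 CPM. The cells these transcripts came from were not tested. Myeloid markers were lower in Ly49G+, with 12 of 22 measured and 10 called, led by Adgre4, Ace and Treml4. Their summed level was 2195 to 2306 CPM in Ly49G+ and 2665 to 3681 CPM in Ly49I+, most of it from Itgam and Itgax, which NK cells also express. Itgax lay the other way, at 0.26 ± 0.08 (SE, limma, adjusted p = 0.0985, and 0.0185 with the block). The other 10 myeloid markers, summed after these values were seen, came to 23.0, 35.7 and 56.5 CPM in Ly49G+ replicates 1, 2 and 3, against 337, 1162 and 259 CPM in the Ly49I+ replicates. Of these 10, 9 were called lower, and their log2 differences ran from -5.44 to -0.79. With limma's robust prior 6 myeloid markers were called. A joint list of markers of type 1 innate lymphoid cells and of tissue residency had 5 of 11 genes measured. Of these Il7r and Il21r were called, both higher in Ly49G+. The summed level of the 5 was 175 to 217 CPM in Ly49G+ and 100.4 to 118 CPM in Ly49I+. Itga1, the CD49a gene, lay the other way, at 6.64, 11.5 and 9.27 CPM in Ly49G+ and 13.1, 13.9 and 12.9 CPM in Ly49I+ (-0.57 ± 0.20, limma adjusted p = 0.154). With the replicate number as a block all 5 were called, Itga1 lower and the other 4 higher. Of 12 B cell markers 4 were measured and 1, Cd22, was higher in Ly49G+, with sums of 313 to 437 CPM in Ly49G+ and 198 to 442 CPM in Ly49I+. Igkc lay the other way, at 5.33, 8.86 and 34.8 CPM in Ly49G+ and 14.6, 76.5 and 20.0 CPM in Ly49I+ (-1.25 ± 0.68, limma adjusted p = 0.325). Ighm lay at 0.45 and Ighd at -0.02, and neither was called. With the block 2 B cell markers were called, and Cd22 was not called without Ly49G+ replicate 2 or 3. Of 7 stromal and endothelial markers 1 was measured, and it was not called. Measured markers were at 14 reads or more in every library, so none of them was at 0, and no statement is made about markers without a row. All listed genes reached 10.01 CPM in at least 2 libraries. Adgre4, Ace, Treml4, Csf1r, Cybb, Sirpa, Cd300ld, Tlr13 and Cst3 did so only in Ly49I+ libraries. Cd3d, Cd3e and Trac did so only in Ly49G+ libraries. Such genes could have a row only through the group where they were high, and the counts called partly reflect this.

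The inhibitory receptor gene Klrb1b separated the populations. Ly49G+ replicates 1, 2 and 3 held 189, 198 and 218 CPM of Klrb1b RNA, against 376, 429 and 379 CPM in Ly49I+ replicates 1, 2 and 3. The groups did not overlap, and the highest Ly49G+ library stayed well under the lowest Ly49I+ library. The mean was 202 ± 14.8 CPM in Ly49G+ and 395 ± 29.7 CPM in Ly49I+ (SD, n = 3 each), so that Ly49G+ cells had 51.1% of the Ly49I+ level. On the log2 scale the difference was -0.97 ± 0.08 (SE, limma, adjusted p = 0.000224), which corresponds to a 1.96-fold higher level in Ly49I+ cells. By p-value Klrb1b ranked 10 among all 8520 genes. In bulk RNA, fewer cells that express the gene and less RNA per cell cannot be told apart. Within Ly49I+, all measured members, Klrb1b included, were highest in replicate 2, the library with the most myeloid RNA. In Ly49I+ replicates 1 and 3 Klrb1b stood at 376 and 379 CPM. The 10 myeloid markers without Itgam and Itgax summed to 337 and 259 CPM there. Without Ly49I+ replicate 2 the log2 difference of Klrb1b was -0.91 (limma adjusted p = 0.00112).

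Klrb1c, the gene of the NK1.1 antigen on which both populations were gated, was the most abundant member. It stood at 1248, 1295 and 1308 CPM in the Ly49G+ libraries, against 1268, 1343 and 1318 CPM in the Ly49I+ libraries. The groups overlapped throughout, with a mean of 1284 ± 31.7 CPM in Ly49G+ and 1309 ± 38.3 CPM in Ly49I+ (SD, n = 3 each). The log2 difference was -0.03 ± 0.07 (SE, limma, adjusted p = 0.84), and its sign turned when libraries were centred on their medians (0.00615). The 95% interval of the Ly49G+ level relative to Ly49I+ ran from 0.88-fold to 1.09-fold. Since the sort required the NK1.1 protein, both populations were chosen on the product of this gene.

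Klrb1a, which encodes the activating receptor NKR-P1A, was the steadiest member. It stood at 149.6, 150.4 and 153 CPM in the Ly49G+ libraries, against 150.1, 151 and 143 CPM in the Ly49I+ libraries. Only Ly49I+ replicate 3 lay apart from the others, on the low side. The log2 difference was 0.03 ± 0.07 (SE, limma, adjusted p = 0.821), with a 95% interval from 0.92-fold to 1.13-fold. The standard deviation within groups was 0.033 on the log2 scale, below that of all but 2.9% of 1206 genes of like level. In Ly49G+ it amounted to 1.19% of the mean, where counting error alone gives 1.32% to 1.41% per library. Klrb1c also varied little, at 0.039, below all but 6.15% of 65 genes of like level.

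Klrb1f was higher in all Ly49G+ libraries but missed the threshold. It stood at 225, 249 and 226 CPM in the Ly49G+ libraries, against 191, 196 and 170.0 CPM in the Ly49I+ libraries. The groups did not overlap. Means were 233 ± 13.7 CPM in Ly49G+ and 186 ± 13.8 CPM in Ly49I+ (SD, n = 3 each), with a log2 difference of 0.33 ± 0.08 (SE, limma, adjusted p = 0.0521, and 0.00640 with the replicate number as a block). The 95% interval ran from 1.11-fold to 1.42-fold. Klrb1f also passed without Ly49I+ replicate 1 (adjusted p = 0.0364). It missed the threshold when any other single library was left out, with a limma adjusted p of up to 0.252 (without Ly49G+ replicate 2).

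The ligand gene Clec2i had the largest difference toward Ly49G+ among the members. It stood at 35.7, 35.5 and 28.3 CPM in the Ly49G+ libraries, against 22.8, 25.1 and 20.1 CPM in the Ly49I+ libraries. Ly49G+ replicate 3 was low for its group but above all Ly49I+ libraries. Means were 33.2 ± 4.24 CPM in Ly49G+ and 22.7 ± 2.52 CPM in Ly49I+ (SD, n = 3 each), with a log2 difference of 0.55 ± 0.13 (SE, limma, adjusted p = 0.0429) and a 1.46-fold higher level. The call was lost without Ly49G+ replicate 1 (adjusted p = 0.171), Ly49G+ replicate 2 (0.218), Ly49I+ replicate 2 (0.0514) or Ly49I+ replicate 3 (0.0887).

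Clec2d, the gene of the NKR-P1B ligand Clr-b, was the more abundant ligand. It stood at 249, 272 and 266 CPM in the Ly49G+ libraries, against 223, 237 and 225 CPM in the Ly49I+ libraries. The groups did not overlap, but the gap was small. Means were 262 ± 11.9 CPM in Ly49G+ and 228 ± 7.50 CPM in Ly49I+ (SD, n = 3 each), with a log2 difference of 0.20 ± 0.07 (SE, limma, adjusted p = 0.152) and a 95% interval from 1.03-fold to 1.28-fold.

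Of the 6 measured members 2 were called, Klrb1b lower and Clec2i higher in Ly49G+, against 3.59% of all genes called, 1.82% higher and 1.77% lower. The groups did not overlap for 4 members, Klrb1b lower and Klrb1f, Clec2d and Clec2i higher, against 25.8% of all genes, 12.5% higher and 13.4% lower. Klrb1f, Clec2d and Clec2i share their direction with the called T cell markers and with Il7r and Il21r, though not with Itga1. Among NK cell markers and NK complex lectins, the called genes Gzmb, Prf1, Tbx21, Klrg1 and Klrc1 share the direction of Klrb1b. The called genes Eomes, Klri1 and Klri2 share that of Klrb1f, Clec2d and Clec2i. Klrb1b also shares its direction with the myeloid markers other than Itgax. Without Itgam and Itgax these summed to 23.0 to 56.5 CPM in Ly49G+ and 259 to 1162 CPM in Ly49I+. The part of other cells in these differences was not tested.

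**Figure D1:**
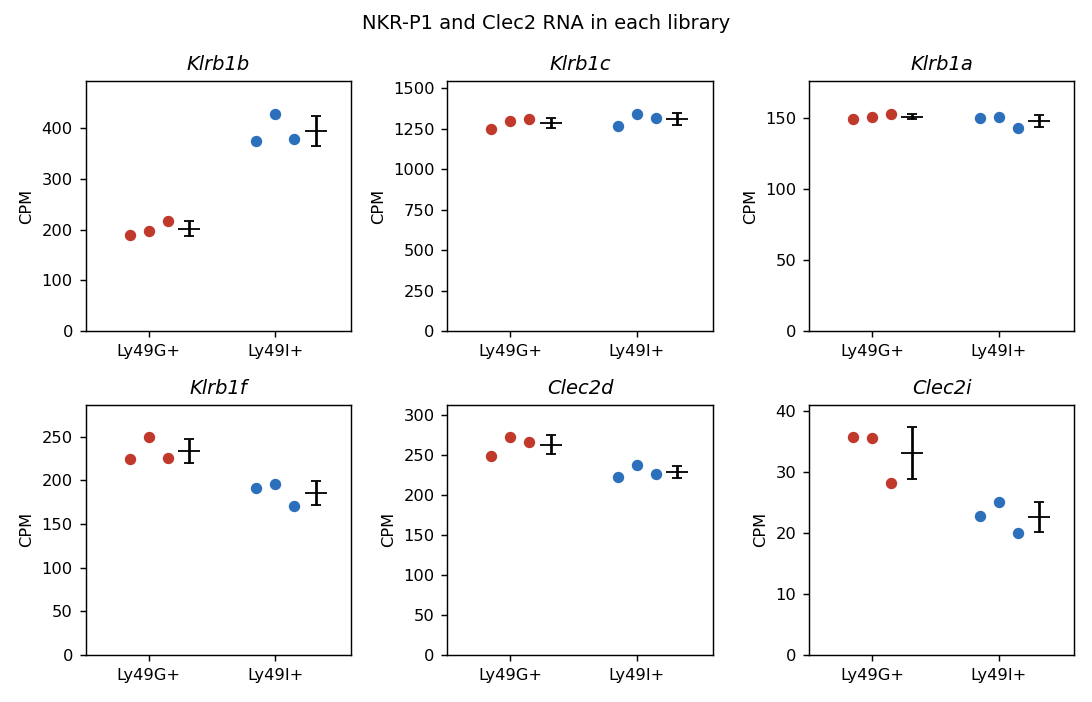
CPM of the 6 measured members in each library, with Ly49G+ left of Ly49I+. Each point is a library (replicates 1 to 3 from left to right), and the cross beside the points gives the mean with bars of 1 SD. Klrb1b lies between 189 and 218 CPM in Ly49G+ and between 376 and 429 CPM in Ly49I+, while the groups overlap for Klrb1c and Klrb1a.

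Divided by exon length, the levels of different genes can be set side by side. In Ly49G+ the order was Klrb1c at 434 ± 10.7 CPM per kb, Clec2d at 216 ± 9.80, Klrb1f at 115 ± 6.78, Klrb1a at 94.7 ± 1.13, Klrb1b at 90.6 ± 6.64 and Clec2i at 10.7 ± 1.36 (SD, n = 3). Klrb1a and Klrb1b overlapped between libraries, and the other neighbours in this order did not. In Ly49I+ Klrb1b moved up to overlap with Clec2d, at 177 ± 13.3 against 188 ± 6.19 CPM per kb for Clec2d. Klrb1c led there at 442 ± 12.9 CPM per kb, Klrb1a at 92.7 ± 2.77 and Klrb1f at 91.7 ± 6.81 overlapped, and Clec2i was lowest at 7.29 ± 0.809 (SD, n = 3). Klrb1b and Klrb1c levels carry an uncertainty from a read-through gene model, Gm44511, which shares 26.9% of Klrb1b and 13.9% of Klrb1c exon bases in GENCODE M21. Of the members' transcript windows of 100 bases, at most 0.504% were shared between any 2 members, the pair being Klrb1a and Klrb1c. The exons of Klrb1f and Clec2i do not overlap those of the genes annotated on the opposite strand.

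Klrb1b made up 9.16%, 9.06% and 10.04% of the members' summed CPM per kb in Ly49G+ replicates 1, 2 and 3, against 17.3%, 18.5% and 17.3% in the Ly49I+ replicates. Klrb1f made up 11.97%, 12.6% and 11.4% in Ly49G+ and 9.66%, 9.31% and 8.56% in Ly49I+. For each 100 units of Klrb1b RNA per kb there were 131, 139 and 114 units of Klrb1f in the Ly49G+ libraries and 55.9, 50.3 and 49.3 units in the Ly49I+ libraries. Klrb1b stood below Klrb1f in each Ly49G+ library and above it in each Ly49I+ library. The RNA of the ligand Clec2d stood at 241, 252 and 224 units per 100 of its receptor Klrb1b in Ly49G+, against 109, 101 and 109 units in Ly49I+. These ratios describe the libraries and were not tested.

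**Figure D2:**
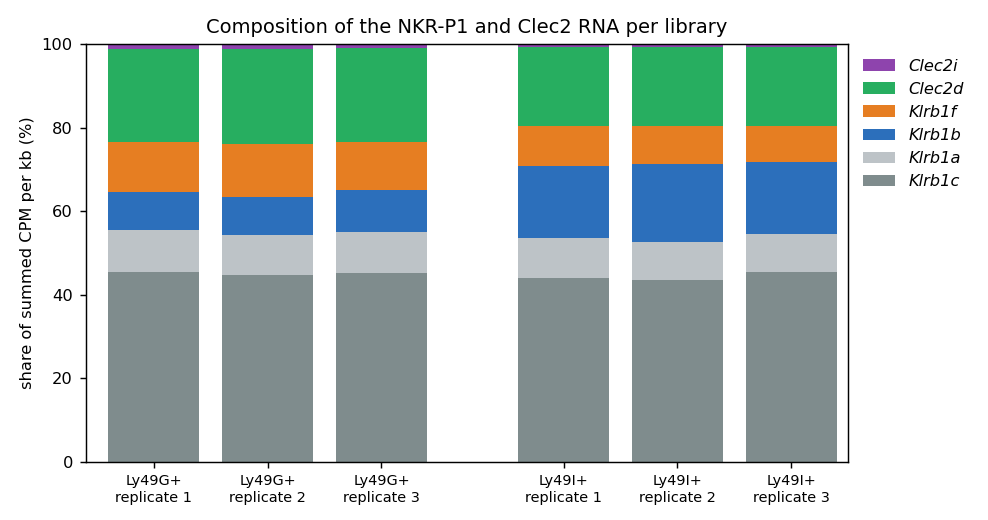
Share of each member in the summed CPM per kb of the 6 measured members, in percent, with a bar for each library and Ly49G+ left of Ly49I+. The Klrb1b segment covers 9.06% to 10.04% in Ly49G+ and 17.3% to 18.5% in Ly49I+, and the Klrb1c segment is the largest in all libraries.

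Of the 27 genes annotated between Klrb1a and Clec2d, 8 were measured, the 6 members and the non-members BC035044 and BC064078. Klrb1b lies between Klrb1c, which was not called, and BC035044, whose log2 difference was 0.31 ± 0.10 (SE, limma, adjusted p = 0.117). BC064078, a long noncoding RNA gene, differed by 0.32 ± 0.12 (adjusted p = 0.178). Beyond Clec2d the next measured gene was Cd69, an early activation lectin, at 36.8, 42.9 and 38.7 CPM in Ly49G+ and 24.8, 33.6 and 28.8 CPM in Ly49I+ (log2 difference 0.45 ± 0.12, limma adjusted p = 0.0745, and 0.00815 with the block). Before Klrb1a the nearest measured gene was Fkbp4, at -0.14 ± 0.08 (adjusted p = 0.348).

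**Figure D3:**
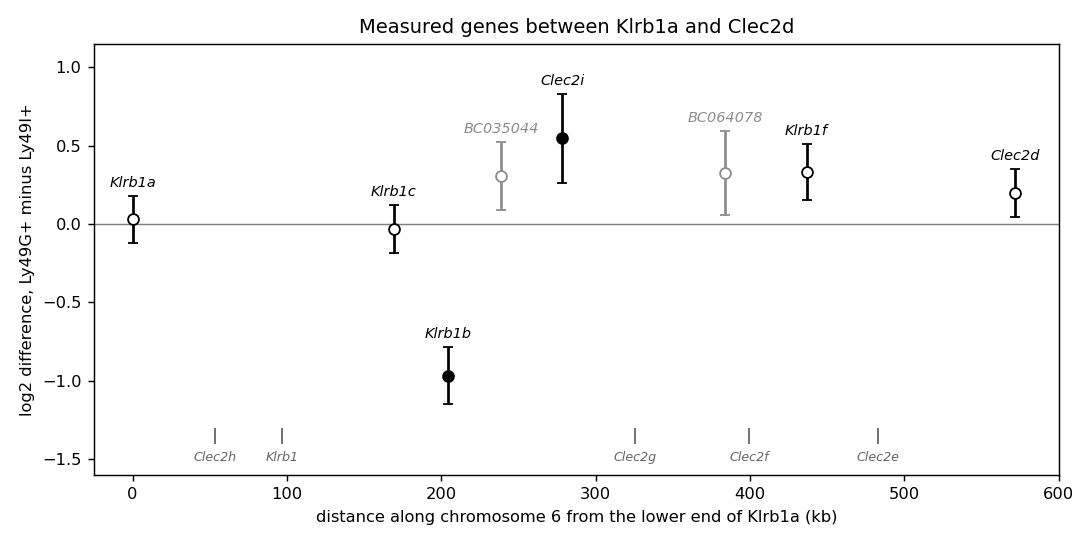
Log2 difference (Ly49G+ minus Ly49I+) with its 95% interval for the 8 measured genes, against distance along chromosome 6 in kb from the lower end of Klrb1a. Black points are members, grey points other genes, filled points passed the limma threshold, and ticks at the bottom mark protein-coding genes without a row. Klrb1b lies at -0.97, while its measured neighbours Klrb1c and BC035044 lie at -0.03 and 0.31.

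The genes closest in pattern to Klrb1b, by root mean square distance of mean-centred log2 CPM over the 6 libraries, were Timp2, L1cam and Tbkbp1. Timp2, an inhibitor of matrix metalloproteinases, lay at a distance of 0.093 and differed by -0.85 ± 0.11 (SE, limma, adjusted p = 0.00232). L1cam, a cell adhesion molecule, lay at 0.115 and differed by -1.05 ± 0.12 (adjusted p = 0.0012), and Tbkbp1, a binding partner of the kinase TBK1, lay at 0.118 and differed by -0.75 ± 0.12 (adjusted p = 0.00784). The genes closest to Clec2i were Neil3, a DNA repair glycosylase, at 0.058, Zfp970 at 0.064 and Cdk6, a cell cycle kinase, at 0.065. Of these Cdk6 was called (0.59 ± 0.12, adjusted p = 0.0191), a call lost without Ly49G+ replicate 1 or 2, where the highest adjusted p was 0.119. Neil3 (0.59 ± 0.20, adjusted p = 0.146) and Zfp970 (0.63 ± 0.17, adjusted p = 0.0756, and 0.0221 with the block) were not. These are likenesses over 6 libraries in 2 groups and describe no shared control.

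Of 22 listed genes of the ITAM arm, through which activating receptors signal, 20 were measured. Of these 1 was called, Fcer1g, lower in Ly49G+, a share near the 3.59% called among all genes. The list's median log2 difference was -0.03, against -0.02 over all genes. Fcer1g encodes the FcR gamma chain that NKR-P1C uses, and stood at 442, 458 and 480 CPM in Ly49G+ against 530.4, 594 and 621 CPM in Ly49I+. The groups did not overlap, and the log2 difference was -0.34 ± 0.08 (SE, limma, adjusted p = 0.0441). Fcer1g was also called with the block (adjusted p = 0.00405), and was not called with median-centred libraries, without the intensity trend or without any of Ly49G+ replicates 1, 2 and 3 or Ly49I+ replicates 2 and 3 (highest adjusted p = 0.201). With the block 2 genes of the list were called, the other being the phospholipase gene Plcg2 (-0.27). The block fit called 993 of all 8520 genes, a larger share than in this list. Without Ly49I+ replicate 1 there were also 2, where 644 of all genes were called. The kinase genes Syk (-0.06 ± 0.07) and Lck (0.07 ± 0.09) were not called.

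Of 11 listed genes of the ITIM arm, through which NKR-P1B inhibits, 10 were measured and 0 were called by limma. At an unadjusted p under 0.05 there were 2. The share of all genes under that p was not determined, so no conclusion is drawn from this count. With the block 1 was called, the adaptor gene Pag1 (-0.25), where 993 of all 8520 genes were called, a larger share. Ptpn6, which encodes SHP-1, stood at 193, 198 and 195 CPM in Ly49G+ and 144, 188 and 182 CPM in Ly49I+ (log2 difference 0.20 ± 0.10, limma adjusted p = 0.299). The groups did not overlap, and most of the gap came from Ly49I+ replicate 1. Ptpn11, the SHP-2 gene, differed by -0.03 ± 0.07 and Inpp5d, the SHIP1 gene, by -0.13 ± 0.07, and neither was called.

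Other lectin receptors of the NK complex moved in both directions. Of 18 listed 10 were measured, with 2 higher and 2 lower in Ly49G+ and a median log2 difference of 0.15. Klrg1, a receptor of mature NK cells, stood at 70.0, 75.2 and 73.1 CPM in Ly49G+ against 166, 175 and 184 CPM in Ly49I+, and Klrc1, the NKG2A gene, at 131, 149.9 and 149 CPM in Ly49G+ against 211, 215 and 206 CPM in Ly49I+. Neither gene's groups overlapped (Klrg1 -1.26 ± 0.07, limma adjusted p = 1.09e-05, and Klrc1 -0.56 ± 0.08, adjusted p = 0.00295). Klri1 stood at 52.3, 50.9 and 44.9 CPM in Ly49G+ and 34.6, 32.2 and 27.1 CPM in Ly49I+ (0.66 ± 0.11, limma adjusted p = 0.00864). Klri2, a closely related gene, stood at 1788, 1729.7 and 1675 CPM in Ly49G+ and 1317, 1271 and 1110.0 CPM in Ly49I+ (0.49 ± 0.08, limma adjusted p = 0.00893). With the block 6 were called, Klrc3 and Cd69 being the additions. Without Ly49G+ replicate 1 or 2 the number called was 2, Klri1 and Klri2 being lost. The list of other NKR-P1 and Clec2 genes, 12 in number, had no measured member.

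**Figure D4:**
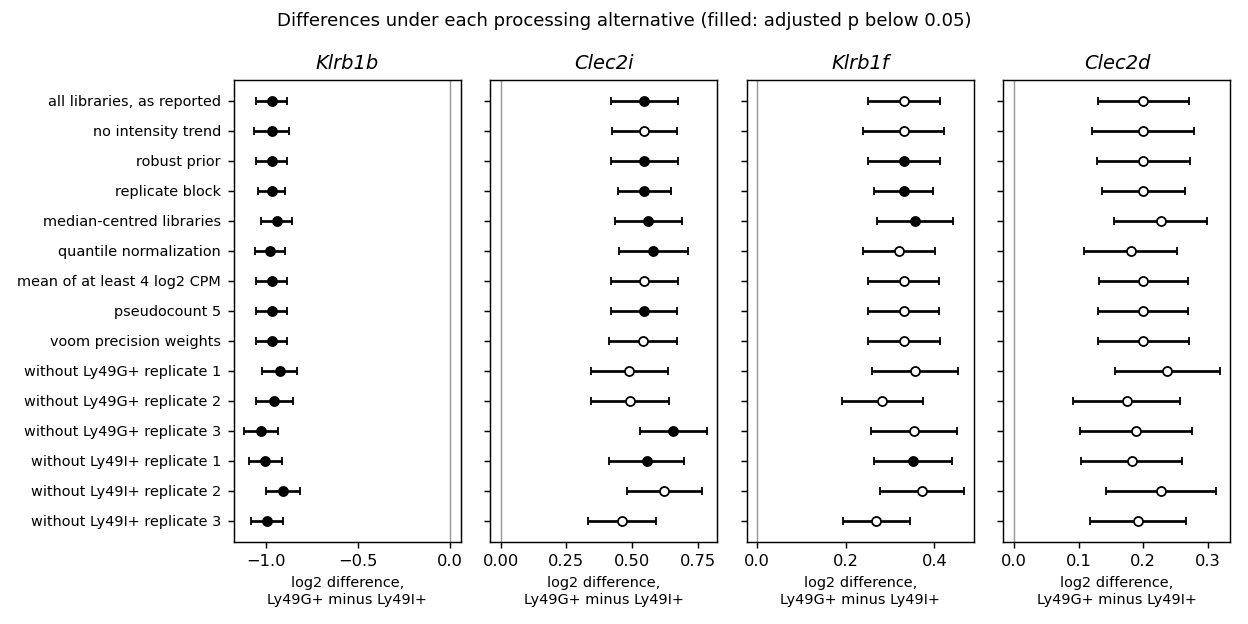
Log2 difference (Ly49G+ minus Ly49I+) and its SE for 4 members in the reported fit and under 14 alternatives, with a row for each. Filled points had an adjusted p below 0.05 in limma. All points keep their side of zero. Those of Klrb1b are all filled, Clec2i and Klrb1f change between filled and open, and those of Clec2d are all open.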

How the data were processed

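RNA was sequenced from sorted mouse spleen NK cells in 3 Ly49G+ and 3 Ly49I+ libraries. The authors deposited 1 table of log2 CPM values, with 8520 genes by NCBI gene number. STAR 2.3.0, CASAVA 1.8.2, limma and build mm10 are named in the submitters' processing notes. Not given in the sources used here are the read counter, its use of strand, the annotation and the filter. Adding 0.5 to each count and 1 to each total, as limma's voom does, turned 100% of values into whole reads within 0.001 read. The listed genes all reached 10.01 CPM in at least 2 libraries. CPM per kb used exon lengths of GENCODE M21, which may differ from the authors' annotation.

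Symbols came from RefSeq (GRCm38.p6) for 8429 genes. R 4.3.3 with limma 3.58.1 was run on the log2 values as deposited, Ly49G+ minus Ly49I+, with an intensity trend, two-sided, with Benjamini-Hochberg adjustment over 8520 genes at 0.05, and these steps were tested on simulated data. Python 3.11.15, numpy 2.4.6, pandas 2.3.3, Biopython 1.88 and matplotlib 3.10.9 handled tables, sequences and plots. The members and the 10 gene lists were chosen with earlier results of these data known. Named are the members, the 3 genes closest in pattern to each member past the threshold, up to 4 called genes of each list and up to 3 of each marker list, by smallest p. Other signalling genes, Cd69, further marker genes such as Itgax, Itga1, Bcl11b and Igkc, and genes called with the block alone were added after their values were seen. Deviations from the group means correlated over genes at 0.371, 0.114 and 0.156 for the Ly49G+ and Ly49I+ libraries numbered 1, 2 and 3, all above 0.1, so the replicate number served as a block in an alternative fit. Ly49G+ replicate 3 correlated more with Ly49I+ replicate 2 (0.359), and Ly49G+ replicate 2 correlated as much with Ly49I+ replicate 1 (0.115). The labels do not say what a number marks.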

Additional observations from a re-analysis of the deposited data

How the results depend on the processing

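Klrb1b was lower in Ly49G+ and past the threshold under all 14 alternatives, with log2 differences between -1.03 and -0.91 when single libraries were left out and adjusted p from 1.88e-06 to 0.00498. Clec2i was higher under all 14 and past the threshold under 7. It missed the threshold without the intensity trend (log2 difference 0.55, adjusted p = 0.0650), with a minimum mean of 4 log2 CPM (0.55, 0.0506) and with voom precision weights (0.54, 0.0547), and with libraries left out it ran from 0.46 to 0.66. Klrb1f was past the threshold under 4 of the 14. These were the robust prior (0.33, 0.0474), the replicate block (0.33, 0.00640), median-centred libraries (0.36, 0.0443) and the fit without Ly49I+ replicate 1 (0.35, 0.0364). Its log2 difference ran from 0.27 to 0.37 with libraries left out, and the highest adjusted p was 0.252. Clec2d and Klrb1a stayed on their side of the threshold under all 14. Klrb1c, which was not called, turned to 0.00615 (adjusted p = 0.973) with median-centred libraries. The number of members called was 1 without the trend, with the minimum mean and with the weights, and from 1 to 3 with libraries left out. The number of genes called was 993 with the replicate block and from 94 to 644 with libraries left out. With the minimum mean, which tests fewer genes, 3 T cell and 3 myeloid markers were called. The other markers of these lists called in the reported fit fell under that mean and were not tested there. They were Cd3d, Cd3e and Trac, and the myeloid genes Ace, Adgre4, Csf1r, Cd300ld, Sirpa, Tlr13 and Treml4. Apart from Klrb1f, the block changed the call of no member. The cause of the other shifts was not tested. Depth does not limit the members, the lowest count being 783 reads.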
